A study of Homo sapiens with 5 samples.

Results

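The cholesterol synthesis mRNAs described here are 8 genes, chosen by symbol from the 25702 genes of the deposited table: ACAT2, HMGCS1 and IDI1 of the mevalonate steps, FDFT1, SQLE, CYP51A1 and SC5D of the squalene and sterol steps, and INSIG1, a sterol sensor. They were picked with values of these same libraries in view, both for the compound against vehicle and for immunoprecipitate against input. Their values in those comparisons are therefore given as a description, without a p-value. The libraries come from LTAD cells, a prostate cancer line grown in phenol-red-free medium with charcoal/dextran-treated serum, which is poor in steroids. Cells received the DMSO vehicle or 5 µM of No.10-3, a compound that the labels give by this code alone. RNA immunoprecipitation (RIP) of PSF (the product of SFPQ, which binds RNA) gave 1 library from vehicle cells and 2 from No.10-3 cells (replicates 1 and 2). The 2 input libraries are 1 from vehicle and 1 from No.10-3 cells, but the names of their columns do not say which is which. They are called input A and input B, letters without meaning, and serve together as 1 reference. No control pulldown is named for any of the 5 samples, and nothing in the labels says if the treated pair stems from different cultures. P-values then measure only the spread between these libraries, which may be technical.

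Cells make cholesterol from acetyl-CoA. The mevalonate steps yield isoprenoid units, a pair of farnesyl groups is joined to squalene, and squalene is oxidised, closed to the sterol ring and trimmed to cholesterol. The genes of these enzymes are switched on together by SREBP2, a membrane-bound transcription factor that the escort protein SCAP carries to the Golgi for cleavage when sterols are scarce. INSIG proteins hold SCAP back in the endoplasmic reticulum when sterols are plentiful, and INSIG1 is itself an SREBP target. Cholesterol is also the starting material of androgens.

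RefSeq upstream sequences (GRCh38.p14) matched 5 of the members (HMGCS1, IDI1, CYP51A1, SC5D and INSIG1), with 9 windows of 250 bases before an annotated start. They are shown because these genes are known to share SREBP control, which usually works beside the CCAAT-binding factor NF-Y. No value in the deposited table measures these windows. The sequences run 5′ to 3′ on the gene's strand, and capitals mark CCAAT on either strand, read as ATTGG on the other. The windows are chr5:43313413-43313662 (minus strand) for HMGCS1, chr11:121292521-121292770 (plus) for SC5D, chr7:155297628-155297877 (plus) for INSIG1 and chr7:92134478-92134727 (minus) for CYP51A1.
HMGCS1: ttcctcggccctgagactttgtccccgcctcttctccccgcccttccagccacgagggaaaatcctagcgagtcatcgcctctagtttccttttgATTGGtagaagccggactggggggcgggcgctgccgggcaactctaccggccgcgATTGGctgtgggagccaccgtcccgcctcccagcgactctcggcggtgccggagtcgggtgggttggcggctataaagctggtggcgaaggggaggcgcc
SC5D: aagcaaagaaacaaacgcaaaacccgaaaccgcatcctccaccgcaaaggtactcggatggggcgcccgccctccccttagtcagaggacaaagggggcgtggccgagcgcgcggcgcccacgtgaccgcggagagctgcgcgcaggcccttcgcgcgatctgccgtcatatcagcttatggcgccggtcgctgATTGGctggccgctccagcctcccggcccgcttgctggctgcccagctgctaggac
INSIG1: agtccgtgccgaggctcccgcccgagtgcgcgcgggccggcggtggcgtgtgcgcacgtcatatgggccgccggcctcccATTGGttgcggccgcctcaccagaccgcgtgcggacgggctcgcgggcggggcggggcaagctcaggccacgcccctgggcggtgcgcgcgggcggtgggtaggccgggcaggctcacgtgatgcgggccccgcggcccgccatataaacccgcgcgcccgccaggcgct
CYP51A1: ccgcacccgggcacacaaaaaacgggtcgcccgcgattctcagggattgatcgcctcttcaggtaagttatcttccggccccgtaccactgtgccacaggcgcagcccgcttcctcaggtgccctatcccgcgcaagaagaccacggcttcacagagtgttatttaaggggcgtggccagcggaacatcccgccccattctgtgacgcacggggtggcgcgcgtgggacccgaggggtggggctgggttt
HMGCS1 holds 2 CCAAT matches here, SC5D and INSIG1 1 each, and CYP51A1 none. Over the 9 member windows, some of which overlap within a gene, 6 held CCAAT, against 36 of the 72 windows of the wider sterol and lipid lists (members included) and 32.0% of all 35116 windows of this length in the table. The GC box GGGCGG (either strand, overlapping matches counted) was in 9 of 9, against 57 of the 72 list windows and 42.6% of all windows. The strict sterol regulatory element TCACNCCAC was in 0 of 9, against 0.883% of all windows. Of the 72 list windows 1 held it, at SREBF2. A match is a run of letters and does not show that a factor binds there.

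The table holds whole-number read counts per gene. Total counts were 4010376 in input A, 3083063 in input B, 2181770 in the vehicle PSF-RIP, and 1519362 and 3368252 in No.10-3 replicates 1 and 2. Much of each input, 51.7% and 55.0% of counts, fell on 5 small RNAs (RN7SK, RN7SL1, RN7SL2, RPPH1 and RMRP), against 2.63% to 7.81% in PSF-RIP. Nuclear protein-coding genes took only 15.9% and 16.4% of the inputs and 73.6% to 82.1% of PSF-RIP. Levels are therefore given as CPM (the share of a library's counts) scaled with TMM factors, which set the bulk of genes level between libraries. A value over input then means relative to the typical RNA, not an absolute recovery. Between treatments, a different level in PSF-RIP may reflect how much of an mRNA PSF bound or how much of it the cells held, relative to other RNAs. These cannot be told apart here. All 10 luminal prostate markers (KLK3, KLK2 and others) were above 1 CPM in every library, with KLK3 at only 5.33 to 13.3 CPM. Of 15 basal, stromal, endothelial, leukocyte and hepatocyte markers, 1 was above 1 CPM in every library and 6 had no count in any. The highest level among these 15 was 8.14 CPM, of VWF.

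In the vehicle PSF-RIP every one of the 8 mRNAs lay below the mean of the inputs, by a median of 1.56 on the log2 scale (log2 of -1.56). In the No.10-3 libraries the medians were -0.19 in replicate 1 and -0.11 in replicate 2. The same medians over all 13321 genes tested against input were 0.03 with vehicle, 0.04 in replicate 1 and 0.09 in replicate 2. All 8 stood higher in both No.10-3 PSF-RIP libraries than in the vehicle library, with log2 differences of 0.28 to 1.82 in replicate 1 and 0.19 to 1.87 in replicate 2. Of all 13766 genes tested between treatments, 33.2% were higher than vehicle in both libraries. Nothing is read from the members' count, since the choice of members used this comparison and both differences share the single vehicle library.

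**Figure D1:**
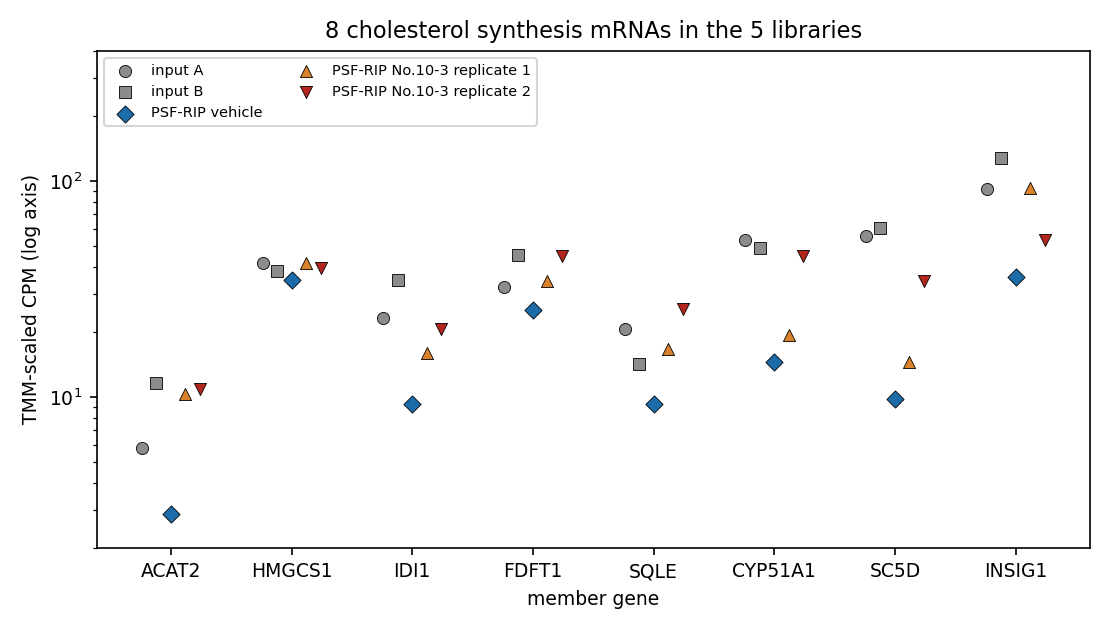
TMM-scaled CPM (log axis) of the 8 member genes (x axis) in each of the 5 libraries, 1 point per library. The vehicle PSF-RIP point is the lowest of the 5 for every gene, and HMGCS1 has the narrowest range, from 34.6 to 41.8 CPM.

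ACAT2 (Entrez gene 39) encodes the cytosolic thiolase that joins 2 acetyl-CoA units and opens the pathway. It had 9 and 13 counts in inputs A and B, 12 with vehicle PSF-RIP, and 28 and 75 in No.10-3 replicates 1 and 2. These are levels of 5.79 and 11.6 CPM, 2.86 CPM, and 10.4 and 10.8 CPM. The treated pair agreed closely, at 10.6 ± 0.334 CPM (SD, n = 2), and lay within the range of the inputs, while the vehicle library alone was low. Replicate 1 over vehicle was a ratio of 3.62 (95% exact interval 1.78 to 7.82) and replicate 2 over vehicle 3.79 (2.05 to 7.65). Such intervals cover counting error only, and reads without molecular identifiers are not independent molecules. For no member are they a test of the compound, since members were chosen on this comparison. The width for ACAT2 comes from the 12 counts of the vehicle library. In the RefSeq gene table ACAT2 overlaps TCP1, SOD2 and SOD2-OT1. TCP1 had 302 counts with vehicle, 240 in replicate 1 and 743 in replicate 2, so reads placed on the wrong gene of this pair could matter for ACAT2, which was not tested.

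HMGCS1 (Entrez gene 3157) encodes HMG-CoA synthase, an early enzyme of the mevalonate steps. It had 65 and 43 counts in the inputs, 145 with vehicle, and 113 and 274 with No.10-3. In CPM these were 41.8 and 38.2, 34.6, and 41.8 and 39.6. No library stood apart, and the counting intervals of the treated over vehicle ratios, 0.937 to 1.56 and 0.933 to 1.41, both include 1. IDI1 (Entrez gene 3422) encodes the isomerase that balances the isoprenoid building blocks. It had 36 and 39 counts in the inputs, 39 with vehicle, and 43 and 142 with No.10-3, or 23.2 and 34.7 CPM, 9.30 CPM, and 15.9 and 20.5 CPM. All 3 PSF-RIP values lay below both inputs, with vehicle the lowest. IDI1 overlaps WDR37 and IDI2-AS1 and has the pseudogenes IDI1P1, IDI1P2 and IDI1P3, so its reads are uncertain where they fit several places.

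FDFT1 (Entrez gene 2222) encodes squalene synthase, the first step committed to sterols. It had 50 and 51 counts in the inputs, 106 with vehicle, and 93 and 310 with No.10-3. At 32.2 and 45.3 CPM in the inputs, 25.3 with vehicle and 34.4 and 44.8 with No.10-3, the treated values fell inside the input range. SQLE (Entrez gene 6713) encodes squalene epoxidase, a rate-limiting step. It had 32 and 16 counts in the inputs, 39 with vehicle, and 45 and 177 with No.10-3. These were 20.6 and 14.2 CPM, 9.30 CPM, and 16.6 and 25.6 CPM, so replicate 2 stood above both inputs and vehicle below both.

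CYP51A1 (Entrez gene 1595) encodes lanosterol demethylase. It had 83 and 55 counts in the inputs, 61 with vehicle, and 52 and 312 with No.10-3, or 53.4 and 48.9 CPM, 14.5 CPM, and 19.2 and 45.0 CPM. SC5D (Entrez gene 6309) encodes the sterol desaturase of a late step. It had 86 and 68 counts in the inputs, 41 with vehicle, and 39 and 238 with No.10-3, or 55.4 and 60.5 CPM, 9.77 CPM, and 14.4 and 34.4 CPM. Both mRNAs lay below the inputs in all 3 PSF-RIP libraries, and replicate 1 was nearer to vehicle than to replicate 2. Their ratios of replicate 1 to vehicle were 1.32 (0.896 to 1.95) for CYP51A1 and 1.48 (0.927 to 2.35) for SC5D. Replicate 2 gave 3.10 (2.35 to 4.15) and 3.52 (2.52 to 5.03). Nothing is read from where these counting intervals lie against 1. Members were chosen on this comparison, and the treated pair differed beyond sampling noise (chi-square over its degrees of freedom 28.8). CYP51A1 overlaps CYP51A1-AS1, which had 1 to 6 counts, and has 3 named pseudogenes.

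INSIG1 (Entrez gene 3638), the sensor that retains SCAP, had the highest input level per kilobase of the 8. It had 143 counts in each input, 151 with vehicle, and 250 and 369 with No.10-3. In CPM it stood at 92.1 and 127 in the inputs, 36.0 with vehicle, 92.5 in replicate 1 and 53.3 in replicate 2. Replicate 1 reached the level of input A and replicate 2 did not, the reverse of the order seen for CYP51A1 and SC5D. The ratio to vehicle was 2.57 (2.09 to 3.17) in replicate 1 and 1.48 (1.22 to 1.80) in replicate 2.

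Per kilobase of the deposited gene length, the level in the inputs was highest for INSIG1, at 35.6 ± 8.05 CPM per kilobase (SD, n = 2), followed by FDFT1 at 18.4 ± 4.42, CYP51A1 at 15.6 ± 0.976, IDI1 at 13.5 ± 3.80 and HMGCS1 at 11.4 ± 0.729. SC5D at 8.09 ± 0.503, SQLE at 5.83 ± 1.51 and ACAT2 at 5.59 ± 2.63 were lowest. The values of the inputs overlapped between neighbours from FDFT1 to HMGCS1 and between SQLE and ACAT2. The order differed in the vehicle PSF-RIP, where FDFT1 (11.996 CPM per kilobase), INSIG1 (11.7) and HMGCS1 (9.85) led and SC5D (1.37) was last. In the No.10-3 PSF-RIP pair INSIG1 (23.7 ± 8.99) and FDFT1 (18.8 ± 3.48) led and SC5D (3.41 ± 1.97) was again last.

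The inputs, 1 from each treatment, bear on whether these mRNAs differed in the cells, without a direction. Input A and input B lay a median of 0.48 log2 units apart over the 8 mRNAs, against 0.43 over 11806 nuclear protein-coding genes. ACAT2 had the widest gap, a ratio of A to B of 0.501 (95% exact interval 0.189 to 1.27) from 9 and 13 counts. INSIG1, with 143 counts in each, had a ratio of 0.724 (0.570 to 0.920). For the other 6 the ratio was between 0.668 and 1.45, with intervals that include 1. The input counts are low, and the intervals of ACAT2 and SQLE (0.772 to 2.83) are the widest of the 8.

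In the fit of all 5 libraries, PSF-RIP was set against input as the mean of its vehicle and No.10-3 groups. The log2 values were -1.89 (SE 0.41) for SC5D, -1.23 (SE 0.39) for CYP51A1, -1.13 (SE 0.42) for IDI1 and -1.10 (SE 0.36) for INSIG1. They were -0.61 (SE 0.54) for ACAT2, -0.32 (SE 0.43) for SQLE, -0.28 (SE 0.38) for FDFT1 and -0.10 (SE 0.37) for HMGCS1. SC5D, CYP51A1 and IDI1 were below both inputs in all 3 PSF-RIP libraries, as were 25.1% of all 13321 genes tested. None of the 8 was above both inputs in all 3 libraries, against 30.1% of all genes. Nothing is read from these member counts, since the choice of members used this comparison. The value depended on the treatment group used. ACAT2 stood at a log2 of -1.55 over input with vehicle and 0.33 with No.10-3, and SQLE at -0.92 and 0.28. SC5D stood at -2.56 with vehicle and -1.21 with No.10-3, CYP51A1 at -1.81 and -0.65, IDI1 at -1.62 and -0.64, and INSIG1 at -1.60 and -0.59, so these 4 were below input in both groups.

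**Figure D2:**
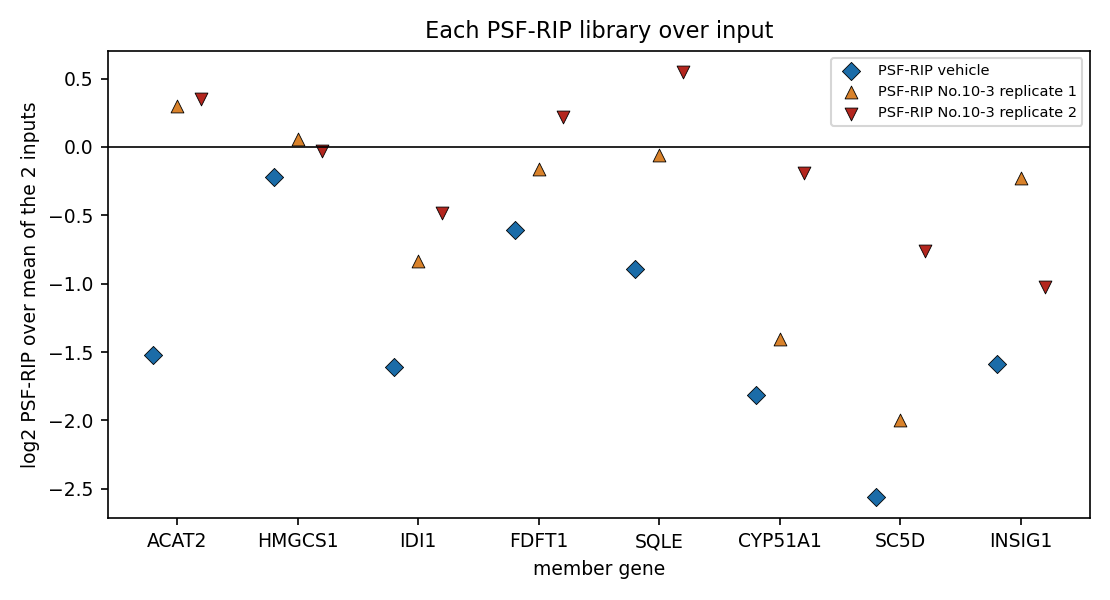
Log2 of each PSF-RIP library over the mean of the 2 inputs (y axis) for the 8 member genes (x axis), 1 point per library, with the line at 0 marking the input level. Vehicle points lie between -2.56 and -0.22, and the No.10-3 points lie above the vehicle point for every gene.

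For No.10-3 against vehicle in PSF-RIP, the fitted log2 differences of the members were 1.88 (SE 0.77) for ACAT2, 1.33 (SE 0.64) for SC5D, 1.19 (SE 0.65) for SQLE, 1.16 (SE 0.62) for CYP51A1 and 1.01 (SE 0.59) for INSIG1. IDI1 had 0.97 (SE 0.65), FDFT1 0.65 (SE 0.59) and HMGCS1 0.23 (SE 0.57). The median was 1.08, against 0.04 over all genes tested. After Benjamini-Hochberg adjustment, 0 of 13766 genes (0%) passed in edgeR's quasi-likelihood fit (563 had an unadjusted p under 0.05), and DESeq2 also called 0 (123 at an unadjusted p under 0.05). All spread in this fit comes from the treated pair, which leaves 1 residual degree of freedom. With replicate 1 left out of the 5-library fit, where the inputs alone give the spread, edgeR called 867 genes, 496 higher (3.75% of 13210) and 371 lower (2.81%). With replicate 2 left out it called 24, 19 of them higher.

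The treated libraries did not differ from vehicle in the same way. Replicate 2 minus replicate 1 was 1.24 log2 units for SC5D, 1.22 for CYP51A1, 0.61 for SQLE, 0.37 for FDFT1 and 0.35 for IDI1, and near 0 for ACAT2 (0.05) and HMGCS1 (-0.08). INSIG1 went the other way, at -0.80. The median size of this gap, without sign, was 0.49 log2 units over the 8 members and 0.49 over 11806 nuclear protein-coding genes. Over 13321 genes of the same libraries, log2 CPM correlated with the mean of the inputs at a Pearson's r of 0.792 with vehicle, 0.820 in replicate 1 and 0.866 in replicate 2. Replicate 2 was also the deepest PSF-RIP library. It had 2766839 counts on nuclear protein-coding genes, against 1660219 with vehicle and 1118883 in replicate 1. The part of depth in these correlations was not tested. Genes are no replicates, and these correlations are a description. Among the 2408 nuclear protein-coding genes at least 2-fold below input in replicate 1, replicate 2 minus vehicle had a median log2 of 0.71 (quartiles 0.28 and 1.13), a class that holds CYP51A1 and SC5D. It was 0.08 (quartiles -0.38 and 0.55) among the 6703 genes within 2-fold of input, which include the other 6 members, and -0.50 among the 2695 genes at least 2-fold above. The part of this in the members' values was not tested.

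The members are 1551 nt (ACAT2) to 7157 nt (SC5D) long, and 6 of them lie between 2000 and 4000 nt. Protein-coding genes of that class had median log2 differences from vehicle of -0.03 in replicate 1 and -0.0097 in replicate 2, and those of 4000 to 8000 nt, the class of SC5D, -0.06 and 0.18. With a length trend removed from each library the fitted difference of SC5D was 1.16, and those of the other 7 were between 0.23 and 1.84; the count of all genes called became 19, all lower.

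**Figure D3:**
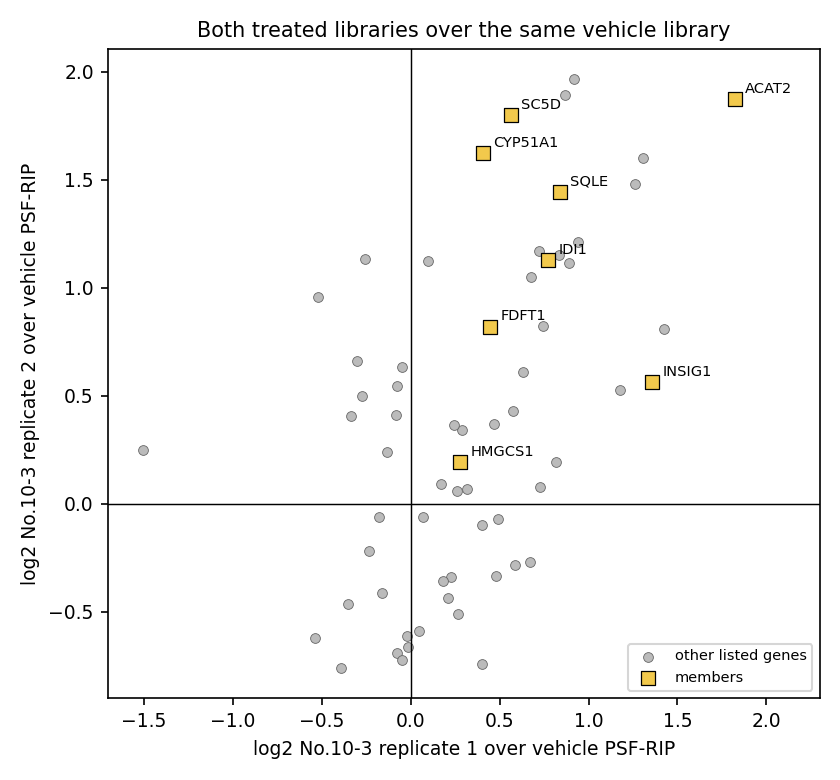
Log2 difference from the vehicle PSF-RIP library in No.10-3 replicate 1 (x axis) and replicate 2 (y axis), 1 point per gene, for the 8 members (yellow squares, named) and the 55 other listed genes that were tested (grey circles). Both axes share the vehicle library; SC5D (0.56 and 1.80) and CYP51A1 (0.41 and 1.62) lie further along the y axis, INSIG1 (1.36 and 0.56) along the x axis, and ACAT2 (1.82 and 1.87) far along both.

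The rest of the pathway was described with 7 lists of 65 genes in all, 8 members and 57 others, of which 55 others passed the filter of a mean of at least 1 CPM. All 8 members passed as well. Of the 55, edgeR's quasi-likelihood test over all genes called 20 over input (36.4%, against 25.6% of all genes), 11 higher and 9 lower, against 12.2% of all genes called higher and 13.4% called lower. With only the vehicle group over input 6 were called higher and 9 lower, 27.3% of the 55 against 20.6% of all genes. With only the No.10-3 group 7 were called higher and 3 lower, 18.2% against 11.7% of all genes. Over all 13321 genes, 1381 were called higher and 1359 lower with vehicle, and 706 higher and 847 lower with No.10-3. The 55 had a median log2 over input of -0.07, against 0.05 over all genes. Members were set apart with this comparison in view, which affects the balance of directions in the rest.

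Of 15 enzymes of the mevalonate and sterol steps other than the members, 2 were called higher and 3 lower, against 12.2% and 13.4% of all genes. With the members included, 2 of 22 were called higher and 6 lower. Nothing is read from this balance, since the members were chosen on this comparison. GGPS1, which makes geranylgeranyl diphosphate, was at 48.3 and 53.3 CPM in the inputs, 6.44 with vehicle PSF-RIP, 12.2 in No.10-3 replicate 1 and 25.6 in replicate 2, a log2 over input of -2.18 (SE 0.42, adjusted p = 2.49e-04). Its call held with any 1 library left out. MSMO1, a sterol demethylation enzyme, was at 19.96 and 21.3 CPM in the inputs and 3.10, 7.77 and 9.67 in PSF-RIP, a log2 of -1.97 (SE 0.48, adjusted p = 0.00277). LBR, a sterol reductase that also anchors chromatin at the nuclear envelope, had -1.37 (SE 0.41, adjusted p = 0.0129), with each PSF-RIP library below both inputs. With 1 library left out, adjusted p reached 0.0847 for MSMO1 (without vehicle PSF-RIP; 0.0608 without input B) and 0.156 for LBR (without input A; 0.124 without input B and 0.0679 without vehicle).

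LSS, which closes the sterol ring, stood at 23.8 and 9.78 CPM in the inputs and 43.4, 50.7 and 34.4 in PSF-RIP, a log2 over input of 1.31 (SE 0.42, adjusted p = 0.0186). MVD, a decarboxylase of the mevalonate steps, had the highest log2 over input of the lists, 2.74 (SE 0.72, adjusted p = 0.00540), but from only 1 and 3 counts in the inputs. The LSS call was lost with DESeq2's test (adjusted p = 0.0521), without input B (adjusted p = 0.408) and without vehicle PSF-RIP (adjusted p = 0.0587), and that of MVD without input A (adjusted p = 0.183).

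Of the 9 other sensing and processing genes, 4 were called higher and 3 lower, against 12.2% and 13.4% of all genes. The transcription factor SREBF1 was at 41.8 and 29.3 CPM in the inputs and 134, 105 and 97.0 in PSF-RIP, a log2 of 1.70 (SE 0.39, adjusted p = 0.00152). SCAP, the escort protein, had 1.59 (SE 0.39, adjusted p = 0.00306), and the protease gene MBTPS1 1.09 (SE 0.37, adjusted p = 0.0277). SREBF2 had 1.07 (SE 0.38, adjusted p = 0.0354), and missed the threshold with DESeq2's size factors (adjusted p = 0.0503) and DESeq2's test (adjusted p = 0.0511). On the lower side stood INSIG2, the second INSIG gene, at 15.5 and 38.2 CPM in the inputs and 2.62, 4.81 and 10.1 in PSF-RIP, a log2 of -2.54 (SE 0.51, adjusted p = 4.39e-04). The ubiquitin ligase gene RNF139 had -1.69 (SE 0.39, adjusted p = 0.00190) and the second SREBP protease gene MBTPS2 -1.11 (SE 0.38, adjusted p = 0.0276). Without input B none of these 7 calls held, with adjusted p from 0.0946 (RNF139) to 0.330 (MBTPS1). Without input A those of SCAP, SREBF2, MBTPS1 and MBTPS2 were lost (adjusted p = 0.0594 to 0.296), and without vehicle PSF-RIP those of RNF139, SREBF2, MBTPS1 and MBTPS2 (adjusted p = 0.0572 to 0.256).

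Of 7 uptake and transport genes, 2 were called higher and 3 lower, against 12.2% and 13.4% of all genes. SCARB1, a lipoprotein receptor, had a log2 over input of 1.14 (SE 0.41, adjusted p = 0.0341). The lysosomal genes LIPA and NPC2 had -1.85 (SE 0.44, adjusted p = 0.00227) and -1.32 (SE 0.37, adjusted p = 0.00861), and TMEM97 -1.60 (SE 0.37, adjusted p = 0.00169). The call of SCARB1 was lost with DESeq2's test, at an adjusted p of 0.0824. LIPA was called with any 1 library left out, and TMEM97 lost its call only without vehicle PSF-RIP (adjusted p = 0.0588). NPC2 and SCARB1 lost it without input B (adjusted p = 0.227 and 0.506) and without vehicle (adjusted p = 0.196 and 0.127), and SCARB1 also without input A (adjusted p = 0.0553). Over all lists, the 20 calls among the 55 non-members became 9 without input A, 5 without input B, 8 without the vehicle PSF-RIP, 27 without No.10-3 replicate 1 and 36 without replicate 2, while the share of all genes called moved from 25.6% to 8.73%, 4.75%, 10.8%, 34.3% and 42.4%.

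**Figure D4:**
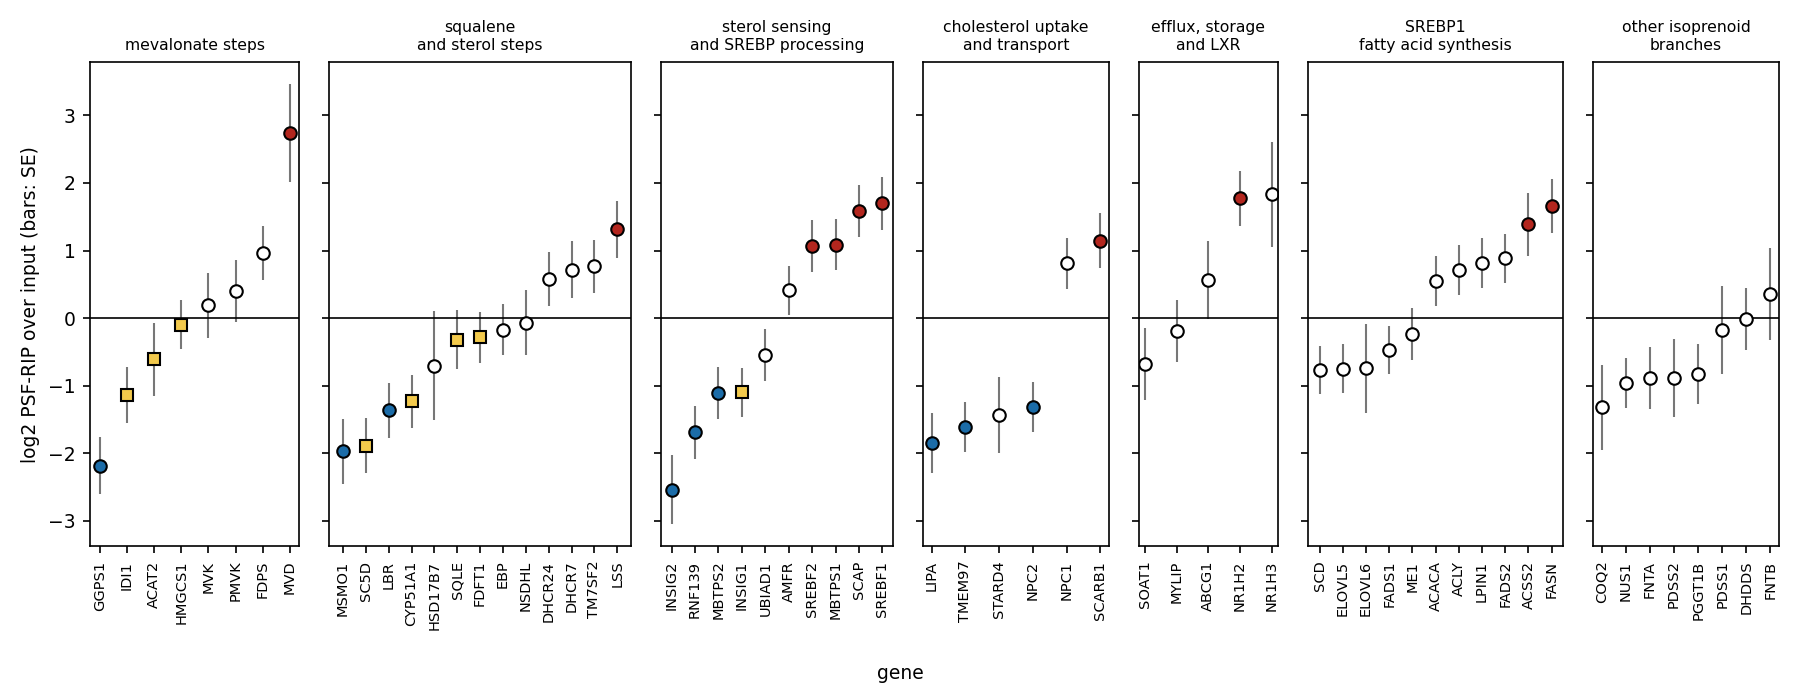
Log2 PSF-RIP over input (y axis, bars are the SE of the fit) for tested genes of the 7 lists (x axis, by list), with red circles called higher, blue circles called lower, open circles not called and yellow squares for the members, which are not marked for calls. SREBF1, SCAP, MBTPS1 and SREBF2 lie above 0 and INSIG2, RNF139, MBTPS2 and INSIG1 below it.

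Between treatments none of the 63 listed genes was called in the fit of the 3 PSF-RIP libraries (edgeR, smallest adjusted p = 0.998; 2 of the 55 non-members had an unadjusted p under 0.05, and DESeq2 called 0 of the 63). The 55 others had median log2 differences from vehicle of 0.24 in replicate 1 and 0.24 in replicate 2. In both treated libraries 23 of them stood above vehicle and 10 below it, against 33.2% and 32.4% of all genes. Values next to those of the members were seen for GGPS1 (log2 0.92 in replicate 1 and 1.97 in replicate 2), INSIG2 (0.87 and 1.89), MSMO1 (1.31 and 1.60) and RNF139 (1.26 and 1.48). SREBF1 had -0.35 and -0.46, MBTPS1 -0.39 and -0.76, and SCAP -0.08 and -0.69. The 5-library fit without replicate 1 leaves 1 treated library. Its log2 differences from vehicle were 1.97 for GGPS1, 1.92 for INSIG2, 1.48 for RNF139 and 1.10 for SCD, a fatty acid desaturase. These genes are named because of their values in this same fit, so nothing is read from their size or direction. The values rest on replicate 2 and on the single vehicle library.

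Outside the lists, the 5 genes of at least 10 CPM whose centred log2 CPM over the 5 libraries lay nearest to the members' mean profile were PPM1A, LRCH1, DR1, TWSG1 and UBL3, at Euclidean distances of 0.107 to 0.169 among 8343 genes. PPM1A, a protein phosphatase gene, was at 129 and 140 CPM in the inputs, 54.3 with vehicle PSF-RIP, 89.9 in replicate 1 and 123 in replicate 2. The members themselves lay 0.400 (IDI1) to 1.35 (SC5D) from their own mean profile. Nothing is read from the gap to the 5 genes, which were picked as the nearest of 8343.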

How the data were processed

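RIP-seq of LTAD cells was analysed in 5 libraries: 2 inputs, 1 vehicle and 2 No.10-3 PSF-RIP libraries. The authors deposited 1 table of whole-number read counts per Entrez gene, taken as raw counts, with a gene length. The submitters' processing notes list TopHat2 2.1.0, Bowtie2 2.2.6, Bowtie and hg19 but give no roles. The libraries are stranded per the labels' protocols; which tool counted, with which strand and multi-mapping rules and annotation, is not stated in these sources. The 5 FPKM columns were not used. The treated PSF-RIP columns are named for the compound only and were assigned because 2 other columns are named input.

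Counts were tested with edgeR 4.0.16 (R 4.3.3; TMM, glmQLFit, glmQLFTest, Benjamini-Hochberg threshold 0.05) over genes whose mean reached 1 CPM. PSF-RIP over input used all 5 libraries in 3 groups (2 residual degrees of freedom), the input spread including any effect of the compound. No.10-3 over vehicle used the 3 PSF-RIP libraries. The SE is the log2 value divided by the square root of F. Log2 values of single libraries carry a count of 0.5 added. Alternatives were other scalings, filters, DESeq2 1.42.0, a length correction and left-out libraries. Counts simulated from 1 profile common to all libraries, apart from added changes, served to check the code of the fits. They do not show the error rate of the calls made here. Libraries of a group differed beyond sampling noise (chi-square over its degrees of freedom was 7.86 for the inputs and 28.8 for the treated pair). Biotypes came from a RefSeq table matched on Entrez ID for 23696 genes. Members and lists were chosen with earlier results of these data known. Named genes were the 8 members, listed genes called in either fit, the ends of each list, and the 5 nearest profiles. Some listed genes and markers are counted but not reported by name here.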

Additional observations from a re-analysis of the deposited data

How the results depend on the processing

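The count of genes called over input, 3409, was 3259 to 3723 under 3 other scalings, 2 other filters and the length correction, and 2252 with DESeq2's test. With each library left out it ranged from 641 (without input B) to 5585 (without No.10-3 replicate 2). Listed genes called, 24, count 4 members chosen on this comparison, whose calls support nothing. This count ranged from 18 to 28 under those 7 settings and from 6 to 40 with a library left out, and over the 55 non-members, 20, from 15 to 24 and from 5 to 36 (52 to 56 non-members tested under the other filters). Further settings were chosen after seeing the data. The vehicle group alone over input gave 2740 genes (1381 higher and 1359 lower) and 19 listed ones (6 higher and 13 lower). The No.10-3 group alone gave 1553 genes (706 higher and 847 lower) and 10 listed ones (7 higher and 3 lower). The count between treatments, 0, was 19 with the length trend removed, all lower, and 24 to 867 with a treated replicate left out of the 5-library fit, where listed genes called ranged from 0 to 8, and non-members among them from 0 to 4. The other settings gave 0. Without a low-count filter the median log2 over input of all genes moved from 0.05 to 0.16. Of the members, ACAT2, HMGCS1, FDFT1 and SQLE changed sign over input without the vehicle library and with the No.10-3 group alone. All 8 kept a positive difference in 10 other settings of No.10-3 against vehicle. Nothing is read from this, since every setting uses the same vehicle library and the members were chosen on this comparison. No listed gene called over input that is no member changed sign in any of 14 settings. No paired analysis was possible because the columns of the inputs do not say which treatment each came from and the vehicle PSF-RIP is a single library. Input counts of 9 to 143 for the members limit any value over input.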

Other observations

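Lipid genes next to the cholesterol pathway gave further values over input. Of 11 genes of SREBP1-driven fatty acid synthesis 2 were called higher and 0 lower by edgeR's quasi-likelihood test. Over all genes 12.2% were called higher and 13.4% lower. FASN, the fatty acid synthase, stood at 79.8 and 102 CPM in the inputs and at 320, 316 and 202 in PSF-RIP, a log2 over input of 1.66 (SE 0.40, adjusted p = 0.00238), and ACSS2, an acetyl-CoA synthetase, had 1.39 (SE 0.47, adjusted p = 0.0262; 0.0725 with DESeq2's test). FASN lost its call without input A (adjusted p = 0.144) or input B (adjusted p = 0.0947), and ACSS2 without input A (adjusted p = 0.253), input B (adjusted p = 0.205) or the vehicle PSF-RIP (adjusted p = 0.0730). SCD had the lowest value of that list, -0.77 (SE 0.36), and was not called over input. Of 5 efflux, storage and LXR genes only NR1H2, which encodes LXR beta, was called, at 14.8 and 21.3 CPM in the inputs and 57.7, 76.2 and 53.9 in PSF-RIP, a log2 of 1.77 (SE 0.40, adjusted p = 0.00156), a call that was lost without input A (adjusted p = 0.113). Other isoprenoid branches make ubiquinone, dolichol and prenylated proteins. Of 8 genes of these branches 0 were called by edgeR in either direction, against 25.6% of all genes. Their median log2 over input was -0.85, with a range of -1.32 (COQ2) to 0.36 (FNTB).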
